A study of Mus musculus with 16 samples.

Results

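The circadian clock genes described here are 10 genes: Arntl (also called Bmal1), Clock, Per1, Per2, Per3, Cry1, Cry2, Nr1d1, Nr1d2 and Dbp. They were chosen by name, as the rows of the deposited read counts whose Ensembl identifiers carry these symbols in the GENCODE M21 annotation, and they are 10 of the 54838 genes in the table. Whole adrenals of 4-week-old mice, of mixed background, were profiled by RNA sequencing. Each of the 16 libraries came from its own mouse, with 4 mice in each combination of sex (female or male) and genotype: control, or gain of function of Rspo1 (GOF), the gene of the secreted WNT-enhancing factor R-spondin 1. The labels name the GOF genotype without the promoter or cell type that drives Rspo1, and they give no time of day at which the glands were taken.

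Nearly every mammalian cell runs a molecular clock built on feedback of transcription. ARNTL and CLOCK proteins pair and switch on the Per and Cry genes, whose proteins return to the nucleus and hold the pair in check, while REV-ERB proteins, encoded by Nr1d1 and Nr1d2, repress Arntl, and DBP carries the rhythm to output genes. Adrenal cortex has such a clock of its own, and the release of glucocorticoid from this tissue follows a strong daily rhythm. Clock transcripts therefore rise and fall over the day, Arntl roughly opposite in phase to Nr1d1, Nr1d2 and Dbp. With each mouse sampled once and no collection time given, a difference of level between groups and a difference in the hour of collection cannot be told apart here.

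Of the 10 genes, 9 had an entry in the RefSeq promoter table for GRCm38.p6, which spans 250 bases before to 50 bases after each start, and Per2 did not. The windows were searched on both strands for 5 short motifs known from clock biology: the E-box CACGTG and the E-prime box CACGTT, bound by ARNTL and CLOCK; the D-box, TTATGTAA or TTACGTAA, bound by DBP and its relatives; the RORE, TAGGTCA, bound by REV-ERB proteins; and the CRE, TGACGTCA. A gene was counted if any of its windows matched. Arntl and Per1 had 2 windows and Clock had 3, while 15.4% of the 27025 genes in the table had more than 1, so these 3 genes had more chances to match than most. An E-box stood in 2 of the 9 genes (Per1 and Cry1), against 8.09% of all genes in the table and 7.15% of its 32851 windows. An E-prime box stood in 3 (Cry1, Cry2 and Nr1d1), against 5.44% of genes and 4.68% of windows. A D-box stood in 1 (Per3) against 1.23% and 1.06%, a RORE in 1 (Arntl) against 2.97% and 2.61%, and a CRE in 0 against 2.03% and 1.79%. These are matches of letters and say nothing about binding in the adrenal. The sequences below are those of genes with a match that the results return to: Per3 and Arntl, whose effect of GOF differed between the sexes, and Cry1 with Nr1d1, which passed in no comparison of groups but varied in opposite directions between mice of a group. All are printed 5′ to 3′ on the strand of the gene, with the motif in capitals, and positions are counted with the start base as 0. The Per3 sequence is chr4:151044666-151044915 on the minus strand, with D-boxes at -205 and -158. The Cry1 sequence is chr10:85185065-85185304 on the minus strand, with an E-prime box at -79, read on the other strand as AACGTG, and an E-box at -60. The Nr1d1 sequence is chr11:98775378-98775627 on the minus strand, with an E-prime box at -28, also read on the other strand. The Arntl site is chr7:113207529-113207558 on the plus strand, inside an annotated exon, with the RORE at 30.
Per3: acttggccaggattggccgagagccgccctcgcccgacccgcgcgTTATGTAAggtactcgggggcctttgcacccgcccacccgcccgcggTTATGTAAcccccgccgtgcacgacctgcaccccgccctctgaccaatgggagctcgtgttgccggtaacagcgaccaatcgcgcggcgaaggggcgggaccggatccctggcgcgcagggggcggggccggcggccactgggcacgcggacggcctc
Cry1: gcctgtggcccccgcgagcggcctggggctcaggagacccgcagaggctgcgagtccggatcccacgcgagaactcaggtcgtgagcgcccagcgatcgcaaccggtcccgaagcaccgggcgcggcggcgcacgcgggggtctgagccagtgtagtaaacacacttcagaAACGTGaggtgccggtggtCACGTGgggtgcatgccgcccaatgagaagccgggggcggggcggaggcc
Nr1d1: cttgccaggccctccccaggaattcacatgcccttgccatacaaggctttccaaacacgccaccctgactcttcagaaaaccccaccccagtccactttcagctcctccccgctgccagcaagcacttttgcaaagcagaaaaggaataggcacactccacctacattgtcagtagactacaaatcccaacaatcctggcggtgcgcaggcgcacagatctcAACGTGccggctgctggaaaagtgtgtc
Arntl site: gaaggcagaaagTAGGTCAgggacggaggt

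Library totals ran from 31275146 to 43003968 counts, and 18214 genes were tested. Rspo1 itself stood at 354 to 532 CPM (counts per 1000000) in female GOF libraries against 3.20 to 40.6 in female controls, and at 535 to 972 in male GOF against 19.4 to 48.2 in male controls, so the levels followed the labels. Adrenal cortex sums (7 markers) were 45253 to 52464 CPM in female GOF against 39108 to 49119 in controls, and 33849 to 46699 in male GOF against 32018 to 51011. In each sex 2 of the 7 rose and 1 fell (edgeR, adjusted p under 0.05). Of all genes 19.0% rose and 20.6% fell in females, and 15.2% and 21.8% in males. The 8 medulla markers summed to 5465 to 12329 CPM in control females against 235 to 883 in GOF females, and to 9047 to 12877 in male controls and 461 to 1007 in male GOF. All 8 fell in both sexes (edgeR, adjusted p under 0.05), against 20.6% of all genes in females and 21.8% in males. Capsule sums (6 markers) were 139 to 292 CPM in female GOF against 417 to 513 in controls, and 296 to 352 in male GOF against 477 to 1952. Adipocyte sums (6 markers) were 458 to 879 CPM in female GOF against 1720 to 2167, and 357 to 456 in male GOF against 2068 to 4303. Macrophage marker sums were 262 to 631 CPM in female GOF against 201 to 316, and 492 to 1559 in male GOF against 332 to 460. Between GOF groups, all 5 endothelium markers were higher in males (528 to 695 CPM in sum against 379 to 448, median log2 difference 0.63), against 13.3% of all genes. Of the cortex markers 4 of 7 were lower, against 16.3% of all genes (edgeR, adjusted p under 0.05). Higher in males too were 4 of 6 capsule and 4 of 7 macrophage markers. Lower were 4 of 4 proliferation and 2 of 6 adipocyte markers, and 0 of 8 medulla markers passed. The 4 proliferation markers summed to 123 to 413 CPM in female GOF and to at most 119 in each other group. No marker of these lists was at 0 throughout a group. The mitochondrial share of counts was 1.75% to 2.93% in female GOF against 3.55% to 4.47%, and 2.92% to 3.77% in male GOF against 4.09% to 5.33%. Whether these shifts of cell types and RNA take part in the clock gene values was not tested; in whole glands, fewer cells of a type and less RNA per cell cannot be told apart. Male control 2 held 8626 CPM of liver transcripts, female control 1 held 842 CPM of kidney tubule transcripts and female control 3 held 146, and the counts of clock genes that passed, that did not overlap between groups or that varied together are also given without these 3 controls. Numbers in the sample titles fell into 4 ranges, with 7, 5, 1 and 3 libraries, and the third holds female GOF 4 alone. What the numbers stand for is not stated, and a fit with the range as a covariate is given as an alternative. Only the first range holds both sexes, with 1 female control and 1 female GOF library, so every sex difference in that fit rests on those 2 females.

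All 10 clock genes were expressed well above the filter on low counts, with 130 to 9367 counts in every library. Per length of transcript, on the FPKM scale (fragments per kilobase scaled to the library, as deposited by the authors), the mean level over the 16 libraries was highest for Nr1d1 (79.2 ± 31.8, SD, n = 16), followed by Dbp (60.5 ± 40.6) and Nr1d2 (51.8 ± 19.0). A middle set held Clock (25.1 ± 4.98), Per1 (22.7 ± 9.33), Cry2 (19.7 ± 5.18), Arntl (14.2 ± 4.90), Per2 (11.8 ± 5.51) and Cry1 (10.7 ± 3.46), and Per3 was lowest (6.18 ± 2.28). Neighbours in this order differed by more than the SD of either gene at 3 steps: from Nr1d2 to Clock, from Cry2 to Arntl and from Cry1 to Per3. Dbp ranged most widely, from 13.5 to 157 FPKM. Spread between mice of a group was uneven: the coefficient of variation of Per3 was 6.80% to 18.7% over the 4 groups and that of Clock 10.7% to 19.5%, against 12.5% to 57.6% for Per1 and 15.0% to 63.3% for Per2.

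**Figure D1:**
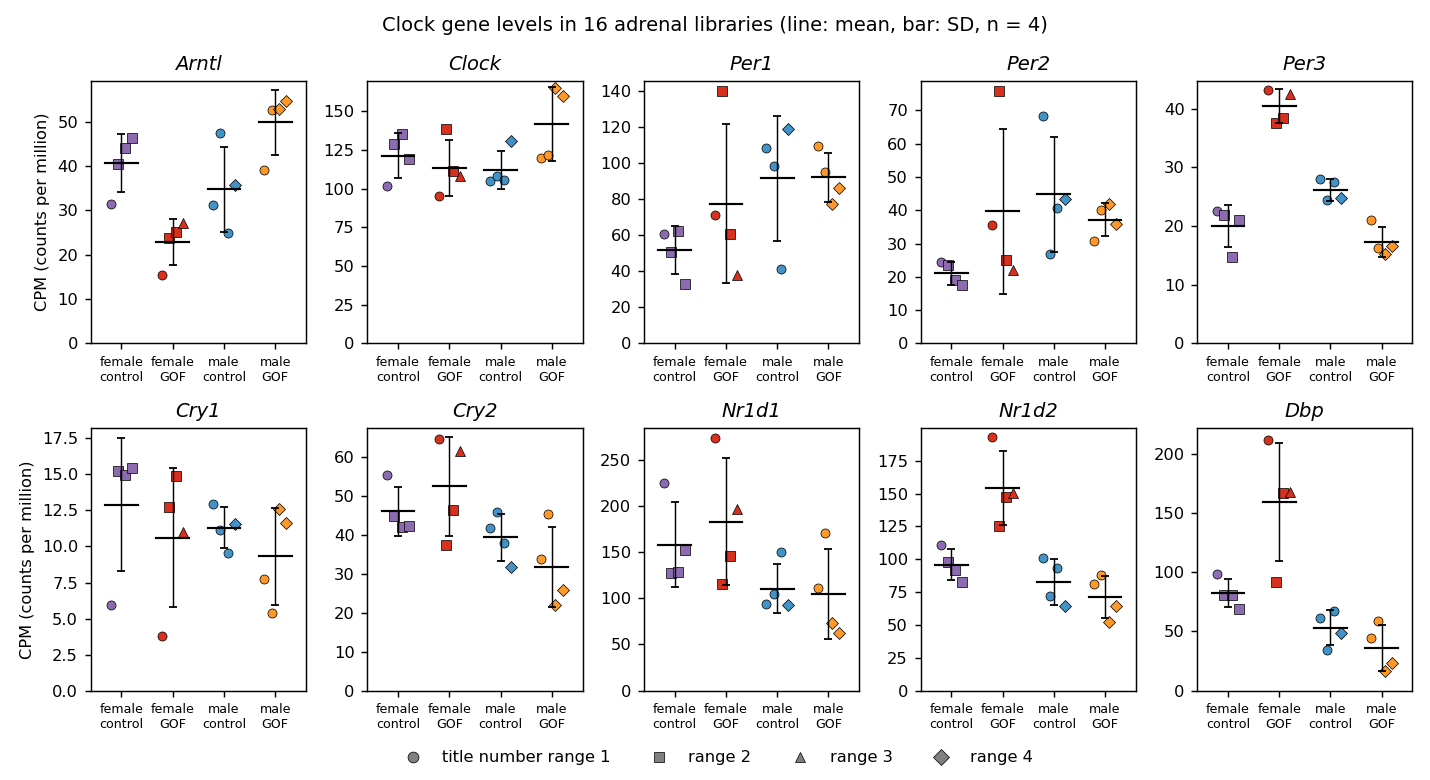
Level of each of the 10 clock genes in each of the 16 adrenal libraries, in CPM, by group; points are libraries, marker shapes show the title number range, and lines and bars show the mean and SD (n = 4). Female GOF libraries sit lowest for Arntl (15.5 to 27.2 CPM, with male control 3 at 24.9 among them) and highest for Per3 (37.5 to 43.2 CPM), while male GOF libraries reach the lowest Dbp levels (16.8 CPM).

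The first question was how Rspo1 gain of function moved the clock genes within each sex. In females, 5 of the 10 passed the threshold of an adjusted p of 0.05: Per2, Per3, Nr1d2 and Dbp rose and Arntl fell. Of all genes tested, 39.6% passed in this comparison, 19.0% higher and 20.6% lower, so a count of 5 is near the background. The median log2 fold change of the 10 genes was 0.40, against 0.05 over all genes. In males 1 of the 10 passed, against 36.9% of all genes (15.2% higher, 21.8% lower): Per3 fell. Their median log2 fold change was -0.24 in males, against 0.01 over all genes. The female and male comparisons use different mice, while the comparisons between the sexes use the same libraries again, so they are given side by side and are not independent of these.

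The second question was how the sexes differed. Between male and female controls, 2 of the 10 clock genes passed, Per2 and Per3, both higher in males, against 23.4% of all genes (13.5% higher, 9.89% lower). In GOF glands 5 passed, against 29.6% of all genes (13.3% higher and 16.3% lower in males): Arntl was higher in males, and Per3, Cry2, Nr1d2 and Dbp were higher in females. The effect of GOF differed between the sexes, by the interaction term, for 2 of the 10, Arntl (a more positive effect in males) and Per3 (more negative), against 4.21% of all genes (1.59% higher, 2.61% lower). Without the 3 control libraries that held liver or kidney transcripts, the counts were 3 in females (24.1% of all genes), 2 in males (25.7%), 0 between controls (8.7%), 5 between GOF groups (27.3%) and 2 for the interaction (0.924%). With the title number range as a covariate, 5 passed in females (34.5% of all genes), 2 in males (32.7%), 2 between controls (Cry1 and Nr1d1, against 7.2%), 6 between GOF groups (Nr1d1 added, against 7.34%) and 3 for the interaction (Nr1d2 added, against 2.43%). The split of all called genes moved with the scaling: with upper-quartile factors 51.2% of the genes called for GOF in males were higher, against 41.1% here, 55.2% against 44.9% between GOF groups, and 62.6% against 37.9% for the interaction (48.5% with RLE factors).

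**Figure D2:**
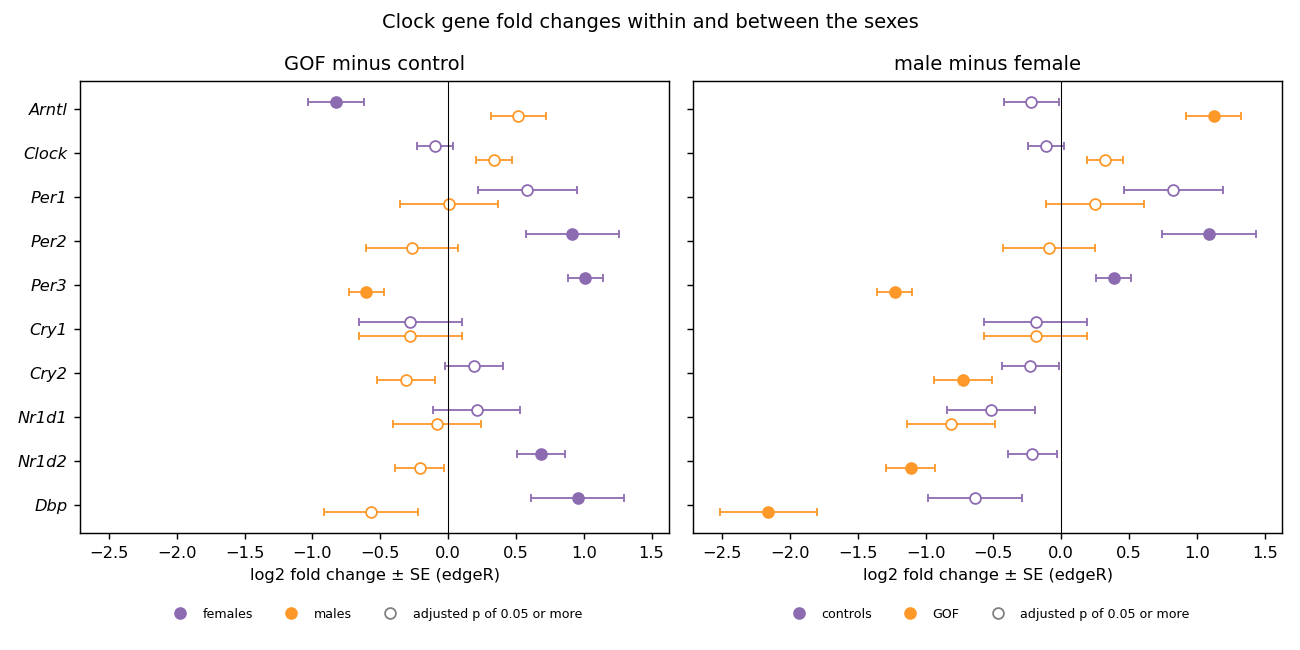
Log2 fold change with its standard error (edgeR) for each clock gene, GOF minus control on the left and male minus female on the right; filled points passed an adjusted p of 0.05. On the left, 8 of the 10 genes have opposite signs in females and males, all but Per1 and Cry1, and the difference between the sexes passed for Arntl and Per3 alone; in GOF glands on the right Dbp lies farthest from 0, at -2.16.

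The positive limb of the clock was taken first. Arntl (ENSMUSG00000055116, chromosome 7, 113207465 to 113314126, plus strand) encodes the partner of CLOCK. Its level was 31.4, 40.5, 44.1 and 46.2 CPM in female controls 1 to 4 and 15.5, 23.7, 25.1 and 27.2 in female GOF 1 to 4. Male controls 1 to 4 held 31.1, 47.5, 24.9 and 35.6 CPM, and male GOF 1 to 4 held 39.0, 52.6, 52.9 and 54.7. All 4 female GOF libraries were below every female control, and the male groups overlapped, since male GOF 1 was below male control 2. Arntl fell in female GOF, by -0.83 ± 0.203 on the log2 scale (SE; adjusted p = 0.00513, quasi-likelihood test of edgeR). Values given as a change or difference below are log2 fold changes with their SE. In males the change pointed the other way, 0.52 ± 0.202, and did not pass (adjusted p = 0.0563, edgeR); it passed in 7 of 11 other settings, among them DESeq2 (0.54, adjusted p = 0.0311). The difference between these effects was 1.34 ± 0.286 (adjusted p = 0.0178, edgeR). In GOF glands Arntl was 2.18-fold higher in males, with no overlap (adjusted p = 0.000894, edgeR), whereas controls of the sexes gave -0.22 ± 0.201 (adjusted p = 0.455, edgeR; -0.51 and 0.181 without the 3 controls holding liver or kidney transcripts). Clock (ENSMUSG00000029238, chromosome 5, 76209868 to 76304792, minus strand) varied little, between 95.3 and 165 CPM over all libraries, and passed in none of the comparisons. Among the 4 comparisons of groups, its largest change was 0.34 ± 0.135 in males (adjusted p = 0.0627, edgeR), which passed in 6 of 11 other settings, among them DESeq2 (0.36, adjusted p = 0.0448) and the fit with the title number range (0.23, adjusted p = 0.0287). Its interaction was 0.43 ± 0.191 (adjusted p = 0.216, edgeR).

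The negative limb came next. Per3 (ENSMUSG00000028957, chromosome 4, 151003652 to 151044665, minus strand), whose promoter carries the D-boxes printed above, showed the smallest adjusted p of the 10 genes in both genotype comparisons. Its level was 22.5, 21.8, 14.7 and 21.1 CPM in female controls 1 to 4 and 43.2, 37.5, 38.3 and 42.5 in female GOF 1 to 4. In males it was 28.1, 24.4, 27.5 and 24.7 CPM in controls 1 to 4 and 21, 16.2, 15.1 and 16.6 in GOF 1 to 4. Female GOF libraries were the highest of all, and in neither sex did GOF and control libraries overlap. Per3 rose 2.01-fold in female GOF (log2 1.01 ± 0.130, adjusted p = 3.76e-05) and fell 1.52-fold in male GOF (log2 -0.60 ± 0.129, adjusted p = 0.00212), both by edgeR. The effects differed between the sexes by -1.61 ± 0.183 (adjusted p = 0.000425, edgeR). Males stood above females in controls, by 0.39 ± 0.129 without overlap (adjusted p = 0.0424, edgeR), and below them in GOF, by -1.23 ± 0.130 (adjusted p = 1.36e-05, edgeR). The control difference was slight: it passed in 4 of 11 other settings and, among the fits that left out 1 library, only without female control 1 or male GOF 1. The gene model of Camta1 spans the whole of Per3 on the same strand, and Camta1 had 362 to 1826 counts, so how reads shared by the gene models were assigned may affect Per3 counts.

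Per1 and Per2 encode the other period proteins, and both genes also respond acutely to stress hormones and cyclic AMP. Per2 (ENSMUSG00000055866, chromosome 1, 91415982 to 91459324, minus strand) stood at 24.4, 23.4, 18.9 and 17.5 CPM in female controls and 35.7, 75.7, 25.2 and 22.0 in female GOF 1 to 4. Male controls held 68.3, 26.8, 40.6 and 43.3 CPM and male GOF 30.8, 40.2, 41.8 and 36.0. Female GOF 2 was far above its group, and female GOF 4 lay within the range of the controls. The female change of 0.91 ± 0.343 passed by edgeR (adjusted p = 0.0467), but in 2 of 11 other settings and in 4 of 16 fits that left out 1 library: those without female GOF 3, female GOF 4, male control 1 or male control 2. Without female GOF 2 it was 0.35. Male controls were all above female controls, by 1.09 ± 0.344 (adjusted p = 0.0341, edgeR); this difference passed in 7 of 11 other settings and when each of 10 of the 16 libraries was omitted, and was lost without female control 2, 3 or 4 or male control 1, 3 or 4. In males the GOF change was -0.27 ± 0.339 (adjusted p = 0.571, edgeR). Per1 (ENSMUSG00000020893, chromosome 11, 69095217 to 69109960, plus strand) ranged from 33.3 CPM in female control 4 to 140.4 in female GOF 2 and passed in no comparison. Its mean was 51.9 ± 13.4 CPM in female controls, 77.6 ± 44.1 in female GOF, 91.8 ± 34.8 in male controls and 92.2 ± 13.7 in male GOF (SD, n = 4).

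The cryptochromes, which repress ARNTL and CLOCK together with PER proteins, passed in 1 comparison between them, that of Cry2 between GOF groups. Cry2 (ENSMUSG00000068742, chromosome 2, 92403646 to 92434043, minus strand) stood at 64.4, 37.4, 46.3 and 61.3 CPM in female GOF 1 to 4 and 33.8, 45.2, 21.9 and 25.9 in male GOF 1 to 4. Those groups overlapped through female GOF 2 and male GOF 2. The sex difference in GOF was -0.72 ± 0.214 (adjusted p = 0.0189, edgeR), and it lost its call without female GOF 1, female GOF 4, male GOF 3 or male GOF 4, with an adjusted p of up to 0.0677. GOF against control gave 0.19 ± 0.212 in females (adjusted p = 0.506) and -0.31 ± 0.213 in males (adjusted p = 0.273), both by edgeR. Cry1 (ENSMUSG00000020038, chromosome 10, 85131700 to 85185064, minus strand) passed in none of the 5 comparisons, with levels of 3.80 to 15.5 CPM. Female control 1 (5.96 CPM) and female GOF 1 (3.80 CPM), the only females in the first title number range, lay well below the other females (11 to 15.5 CPM). In the fit with that range as a covariate, Cry1 was higher in males than in females among controls, by 0.97 (adjusted p = 0.0401, edgeR), where the fit without it gave -0.19 ± 0.379 (adjusted p = 0.757, edgeR). The value with the range rests on those 2 females, and female control 1 is also the library with kidney transcripts.

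The REV-ERB genes encode the repressors of Arntl. Nr1d2 (ENSMUSG00000021775, chromosome 14, 18204054 to 18239127, minus strand) stood at 111, 98.2, 92.0 and 82.4 CPM in female controls 1 to 4 and 193, 126, 148 and 150.3 in female GOF 1 to 4. Male controls held 101, 72.2, 93.5 and 64.1 CPM and male GOF 81.1, 88.0, 52.5 and 64.2. Every female GOF library was above every other library, and the male groups overlapped. Nr1d2 rose 1.61-fold in female GOF (log2 0.68 ± 0.180, adjusted p = 0.00764, edgeR), against -0.21 ± 0.179 in males (adjusted p = 0.383, edgeR). Between GOF groups it was 2.16-fold lower in males (adjusted p = 0.000415, edgeR). The interaction, -0.89 ± 0.254, did not pass (adjusted p = 0.0628, edgeR), and did with DESeq2 (-0.85, adjusted p = 0.0217) and with the title number range (-0.74, adjusted p = 0.0393, edgeR). Nr1d1 (ENSMUSG00000020889, chromosome 11, 98767932 to 98775333, minus strand) passed in none of the comparisons: between the sexes it gave -0.52 in controls (adjusted p = 0.263) and -0.81 in GOF (adjusted p = 0.074), by edgeR, and the latter passed with DESeq2 (-0.79, adjusted p = 0.0369). It was highest in female control 1 (225 CPM) and female GOF 1 (274 CPM), the libraries with the lowest Cry1 among females, and otherwise ran from 116 to 197 CPM in females, with males between 63.0 and 171. With the title number range as a covariate it was lower in males, by -0.96 in controls (adjusted p = 0.0478) and -1.0 in GOF (adjusted p = 0.0429), both by edgeR; those values rest on the same 2 females, which have the highest Nr1d1 of all libraries. Nr1d1 shares 1075 bases with Thra on the opposite strand, which had 3078 to 7005 counts, and whether the counting used strand is not given in the sources used here.

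Dbp (ENSMUSG00000059824, chromosome 7, 45705088 to 45710203, plus strand), a transcription factor at the output of the clock, spread the most. It stood at 98.7, 80.9, 80.4 and 69.2 CPM in female controls 1 to 4 and 212, 91.6, 167 and 168 in female GOF 1 to 4. Male controls held 61.3, 34.3, 67.4 and 48.8 CPM and male GOF 44.3, 58.6, 16.8 and 23.1. Female GOF 2 fell within the range of the female controls, and every male library was below every female one. In female GOF Dbp rose by 0.95 ± 0.344 (adjusted p = 0.0399, edgeR), a call kept in 8 of 11 other settings and in 8 of 16 fits that left out 1 library; it was lost without any of the 4 female controls, female GOF 1, 3 or 4, or male GOF 1. The male change was -0.57 ± 0.345 (adjusted p = 0.212, edgeR) and the interaction -1.52 ± 0.488 (adjusted p = 0.0959, edgeR; -1.48 and 0.0276 with DESeq2). Between GOF groups Dbp was 4.46-fold lower in males (log2 -2.16 ± 0.357, adjusted p = 0.000491, edgeR), while in controls the difference of -0.64 ± 0.344 did not pass (adjusted p = 0.193, edgeR) although the groups did not overlap; without the 3 controls holding liver or kidney transcripts it was -0.34 (adjusted p = 0.699, edgeR). Dbp shares 737 bases with Sphk2 on the opposite strand, which had 1865 to 3166 counts.

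Counts of genes whose groups did not overlap were 3 of 10 in females (Arntl, Per3 and Nr1d2) against 37.8% of all genes, 1 in males (Per3) against 33.1%, 3 between controls (Per2, Per3 and Dbp) against 25.3%, and 4 between GOF groups (Arntl, Per3, Nr1d2 and Dbp) against 29.1%. Without the 3 controls, an alternative added after seeing the data that can only raise these counts, they were 5 in females (Cry1 and Dbp added) against 46.7% of all genes, 2 in males (Arntl added) against 35.5%, and 6 between controls (Arntl, Cry1 and Cry2 added) against 41.9%. The calls that held in every other setting and without each library in turn were those of Arntl and Per3 in females, between GOF groups and for the interaction, of Per3 in males, of Nr1d2 in females and between GOF groups, and of Dbp between GOF groups. With the title number range as a covariate, the change in females was -0.89 for Arntl (adjusted p = 0.00332), 0.97 for Per3 (0.000314), 0.65 for Nr1d2 (0.00169) and 0.85 for Dbp (0.0486), and that of Per3 in males was -0.56 (adjusted p = 0.00569), by edgeR. Between GOF groups it gave 1.54 for Arntl (adjusted p = 0.00481), -1.26 for Per3 (0.00183), -0.69 for Cry2 (0.0263), -1.13 for Nr1d2 (0.00172) and -2.17 for Dbp (0.00669), and for the interaction 1.37 for Arntl (0.0167) and -1.53 for Per3 (0.00284), by edgeR. In the same fit the differences of Per2 (1.12, adjusted p = 0.165) and Per3 (0.28, adjusted p = 0.34) between controls did not pass. Female GOF 4, alone in its range, adds nothing to the comparisons in that fit, and the range that holds 5 libraries has females only.

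Because Arntl and Dbp lie on opposite sides of the loop, their ratio within a library was set out library by library. The ratio of Dbp to Arntl, in CPM, was 3.14, 2.0, 1.82 and 1.5 in female controls 1 to 4 and 13.7, 3.86, 6.65 and 6.16 in female GOF 1 to 4. In males it was 1.97, 0.722, 2.71 and 1.37 in controls and 1.14, 1.11, 0.317 and 0.423 in GOF 1 to 4. All 4 female GOF libraries were above all others. Male GOF 3 and 4, of the last title number range, were the lowest of all. Male GOF 1 and 2, of the first, lay within the range of the male controls only through male control 2 (0.722), the library with liver transcripts. Both were below male controls 1, 3 and 4 (1.37 to 2.71).

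**Figure D3:**
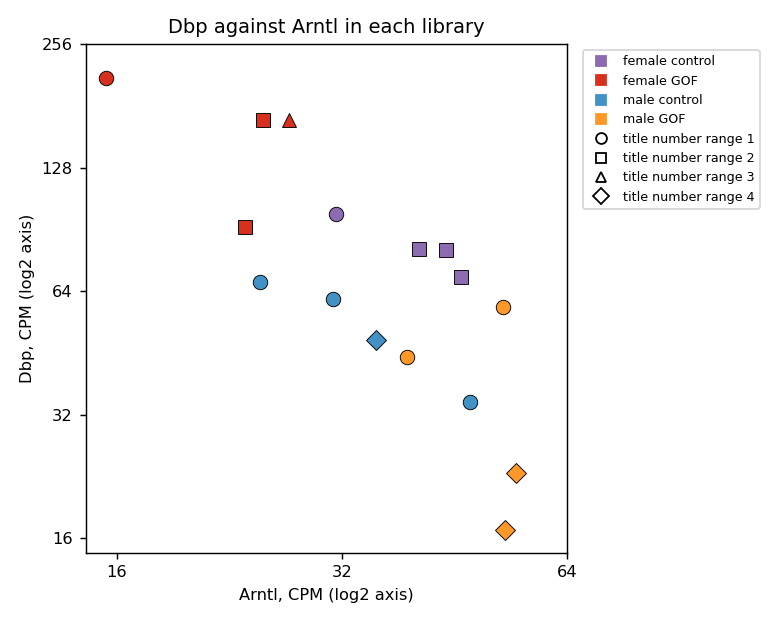
Dbp against Arntl in each of the 16 libraries, both in CPM on log2 axes, coloured by group and shaped by title number range. Female GOF libraries sit at the upper left (ratios of 3.86 to 13.7) and male GOF libraries 3 and 4 at the lower right (ratios of 0.317 and 0.423).

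Variation between mice of a group was then examined, with each gene's group mean removed on the log2 CPM scale. Of the 45 pairs of clock genes, 15 passed an adjusted permutation p of 0.05 by Pearson's r (7 positive and 8 negative) and 18 by Spearman's rho, each over 16 libraries. The permutations moved libraries within groups and took no account of the title number range. The same test was not run on pairs of other genes, so 15 of 45 cannot be read as particular to clock genes. With the range also removed, all 15 kept their sign and 9 shrank by more than 1.5 times: Clock with Cry1 from 0.74 to 0.06, Cry1 with Nr1d2 from -0.68 to -0.17, Nr1d1 with Nr1d2 from 0.73 to 0.16 and Clock with Nr1d2 from -0.84 to -0.32 among them. Nr1d2 and Dbp varied together, with r = 0.88 (permutation p = 0.00054, adjusted 0.0084) and rho = 0.91 (permutation p = 0.00024, adjusted 0.0048); r was 0.83 without the 2 libraries farthest from the median of Nr1d2 and 0.79 with the title number range also removed. Nr1d1 and Cry1, whose promoters are printed above, varied in opposite directions, with r = -0.86 (permutation p = 0.00042, adjusted 0.0084) and rho = -0.86 (permutation p = 0.0013, adjusted 0.0087). Their r was -0.86 without the 2 farthest libraries and -0.78 with the range removed. Clock varied against Cry2, with r = -0.88 (permutation p = 0.00056, adjusted 0.0084) and rho = -0.90 (permutation p = 0.00043, adjusted 0.0048), and r was -0.82 without the 2 farthest libraries. With the title number range removed that r was -0.45, and Clock against Nr1d1 went from -0.86 to -0.45 as well. No pair with Per1 or Per2 passed, the pair of both included (r = 0.59, adjusted permutation p = 0.192). Arntl and Dbp gave r = -0.55 (permutation p = 0.0348, adjusted 0.0783) and rho = -0.57 (permutation p = 0.0222, adjusted 0.0526), so the opposition seen between groups did not pass within them. The number of pairs passing was 4 without female control 1 and 8 without female GOF 1, the females of the first range, and 11 to 21 without each other library; without the 3 controls named above it was 11.

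**Figure D4:**
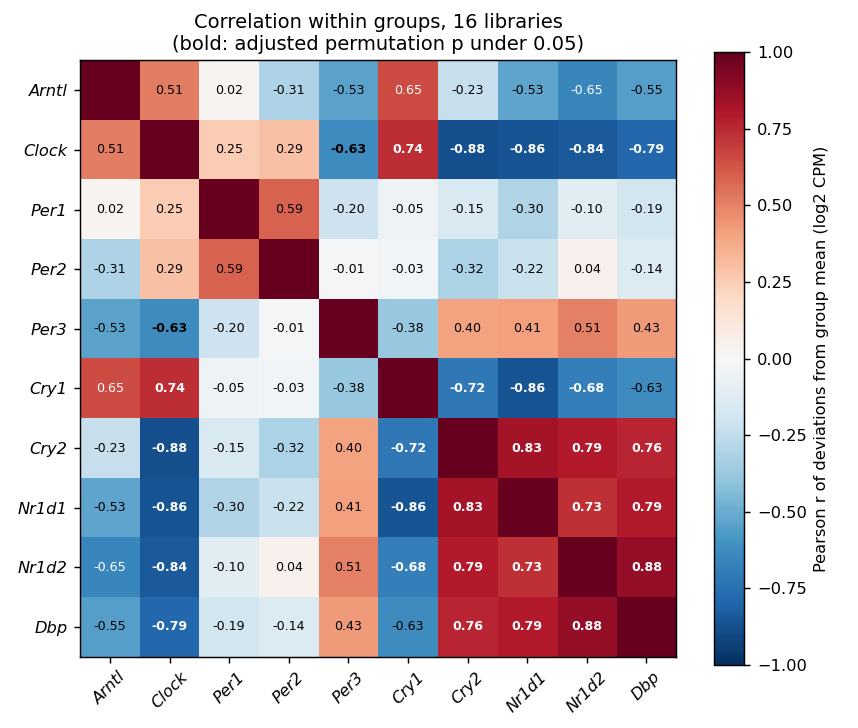
Pearson's r between the 10 clock genes over 16 libraries, after removing each group's mean (log2 CPM); bold numbers passed an adjusted permutation p of 0.05. A block of positive values joins Cry2, Nr1d1, Nr1d2 and Dbp (0.73 to 0.88), Clock is opposite to all 4 (-0.79 to -0.88), and Per1 and Per2 show no bold value. With the title number range removed, which the plot does not show, the block ran from 0.16 to 0.79 and Clock against it from -0.32 to -0.58.

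Among 13505 genes with a mean of at least 1 CPM, those whose deviations were most like Dbp's over the 16 libraries were Ing1 (r = 0.91), Snapc2 (0.91), Zfp768 (0.89), Vmac (0.88) and Auh (0.87), and those most opposite were Dop1a (-0.90), R3hdm1 (-0.90), Ythdc2 (-0.87), Dimt1 (-0.87) and Mat2a (-0.86). For Arntl the most alike were Arel1 (0.94), Carm1 (0.88), Ppip5k2 (0.86), Tnpo2 (0.82) and Dbndd1 (0.82), and the most opposite Slc52a3 (-0.82), H2-T-ps (-0.79), Aoah (-0.79), Creb3l1 (-0.77) and Clec4a1 (-0.76). These are descriptions of a ranking over libraries that share depth and group structure.

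Other genes of the clock were read from 5 lists of known roles. Over these lists, sex differences mostly lost their call with the title number range as a covariate: 2 of 10 calls between controls (Rora and Btrc) and 4 of 16 between GOF groups (Npas2, Rora, Tef and Wee1) also passed in that fit. Over all genes the same was true of 29.1% and 24.1% of the calls. Of the calls for GOF, 13 of 14 also passed with the range in females and 9 of 12 in males, against 83% and 85.1% of those over all genes, and 3 of 5 for the interaction, against 52%. Of 10 further clock transcription factors, 3 passed in females (1 higher, 2 lower) against 39.6% of all genes, 4 in males (1 higher, 3 lower) against 36.9%, 2 between controls against 23.4%, 4 between GOF groups against 29.6%, and 2 for the interaction against 4.21%. Npas2, which can stand in for CLOCK, fell with Arntl in female GOF: it was 15.5, 16.8, 24.3 and 21.8 CPM in female controls and 2.89, 5.68, 5.32 and 5.75 in female GOF, and 8.71 to 15.7 in male controls and 13.3 to 20.6 in male GOF. It fell in female GOF by -1.99 ± 0.243 (adjusted p = 2.43e-05, edgeR), and the effects differed between the sexes by 2.38 ± 0.335 (adjusted p = 0.00165, edgeR). Tef, a close relative of Dbp, held 76.6 to 108 CPM in control females and 123 to 169 in GOF females, 99.7 to 148 in control males and 54.8 to 96.3 in GOF males, with no overlap in either sex. It rose in female GOF by 0.63 ± 0.166 (adjusted p = 0.00796) and fell in male GOF by -0.60 ± 0.166 (adjusted p = 0.0111), with an interaction of -1.23 ± 0.234 (adjusted p = 0.00945), all by edgeR. Without the 3 controls the female change (0.62, adjusted p = 0.0512) and the interaction (-1.24, adjusted p = 0.0626) of Tef did not pass. A Tef promoter, chr15:81811164-81811413 on the plus strand in RefSeq's GRCm38.p6 table, holds an E-box at -138, in capitals, and is shown because Tef moved in opposite directions in the sexes as Per3 did.
Tef: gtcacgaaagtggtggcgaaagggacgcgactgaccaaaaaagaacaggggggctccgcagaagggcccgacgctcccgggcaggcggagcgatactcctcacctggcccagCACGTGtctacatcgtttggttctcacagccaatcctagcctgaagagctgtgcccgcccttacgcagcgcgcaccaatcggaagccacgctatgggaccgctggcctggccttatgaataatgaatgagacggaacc

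Hlf, another relative of Dbp and Tef in the PAR bZIP family, went against both in females, where they rose. Control libraries held 13.9 to 29.9 CPM in females and 41.8 to 44.1 in males, while GOF libraries held 4.39 to 5.70 and 3.26 to 6.37. It fell in both sexes, by -2.20 ± 0.220 in females (adjusted p = 4.86e-06) and -3.16 ± 0.228 in males (adjusted p = 3.42e-07), as the summed medulla, capsule and adipocyte markers did; whether these move Hlf was not tested. Of the remaining factors, Arntl2, a relative of Arntl, rose in male GOF (0.89, adjusted p = 0.0122), while Bhlhe40, a repressor at E-boxes, fell (-1.43, adjusted p = 0.00214), both by edgeR. Rora, an activator at ROREs, was lower in males in controls (-1.34, adjusted p = 0.000724; -0.94 and 0.0479 with the range) and in GOF (-1.40, adjusted p = 0.000347; -1.08 and 0.0337 with the range), by edgeR. Hlf was higher in male than in female controls (0.91, adjusted p = 0.00655) but not with the range (0.62, adjusted p = 0.209), by edgeR. Between GOF groups Npas2 was higher in males (1.79, adjusted p = 9.24e-05) and Tef lower (-0.88, adjusted p = 0.00115), and both passed with the range. Bhlhe40 was lower in males there (-1.51, adjusted p = 0.00196) but did not pass with the range (-1.15, adjusted p = 0.0922), by edgeR.

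**Figure D5:**
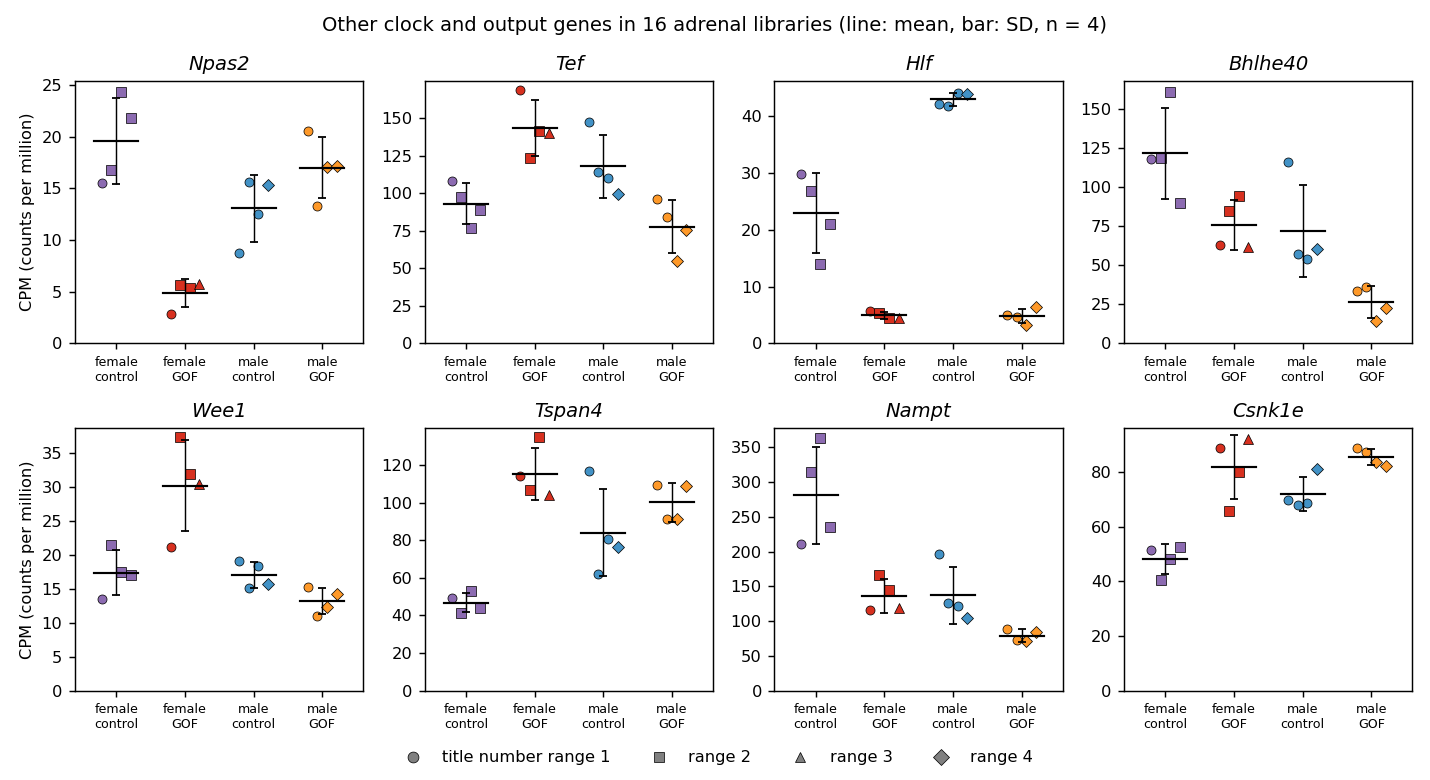
Level of 8 other clock and output genes in each library, in CPM, by group; lines and bars show the mean and SD (n = 4), and marker shapes the title number range. Npas2 sits at 2.89 to 5.75 CPM in female GOF and at 8.71 or more in every other library, and Hlf sits at 3.26 to 6.37 CPM in both GOF groups.

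Of 6 kinases and ubiquitin ligases that act on clock proteins, 2 passed in females against 39.6% of all genes, 2 in males against 36.9%, 2 between controls against 23.4%, 3 between GOF groups against 29.6%, and 1 for the interaction (Btrc, -0.37) against 4.21%. Csnk1e, the casein kinase that marks PER proteins for breakdown, rose in female GOF, from 40.4 to 52.7 CPM in controls to 65.9 to 92.1 (0.76 ± 0.104, adjusted p = 6.19e-05, edgeR). It was higher in male than in female controls (0.58, adjusted p = 0.00126), but not with the title number range (0.41, adjusted p = 0.0802), by edgeR. Fbxl21, a ligase subunit, was lower in male than in female GOF by -0.92 (adjusted p = 0.00572) and did not pass with the range (-0.76, adjusted p = 0.146), by edgeR. The other calls, of Csnk1d, Btrc and Gsk3b, were smaller in size than the interaction of Btrc, and several were weak: of 11 other settings, Csnk1d passed in 5 in females and 1 between GOF groups, Btrc in 4 in males and Gsk3b in 2 in males.

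Of 7 rhythmic output genes, 4 passed in females (2 higher, 2 lower) against 39.6% of all genes, 2 in males (both lower) against 36.9%, 5 between controls against 23.4%, 3 between GOF groups against 29.6%, and 2 for the interaction against 4.21%. Wee1, a kinase that restrains entry into mitosis, and Tspan4, a tetraspanin, rose in female GOF, by 0.80 ± 0.172 (adjusted p = 0.00209) and 1.30 ± 0.158 (adjusted p = 2.53e-05), by edgeR. Both had an interaction, of -1.17 (adjusted p = 0.016) and -1.04 (adjusted p = 0.017), each kept in 8 of 10 other settings; that of Wee1 was lost without the 3 controls (adjusted p = 0.093) and that of Tspan4 with the range (adjusted p = 0.0523), by edgeR. Proliferation markers were higher in female GOF as well, as given above, and their part in the Wee1 values was not tested. Nampt, which makes a precursor of NAD and is driven by the clock, fell in both sexes, by -1.04 in females (adjusted p = 0.00104) and -0.79 in males (adjusted p = 0.00715), and so did Tsc22d3, a glucocorticoid target, by -0.67 (adjusted p = 0.00897) and -0.76 (adjusted p = 0.00442), all by edgeR. The female change of Tsc22d3 did not pass without the 3 controls (-0.55, adjusted p = 0.099, edgeR).

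Between controls, 5 of these output genes passed by edgeR and none did with the range. Nampt was lower in males (-1.04, adjusted p = 0.00226; -0.62 and 0.138 with the range), and so was Lonrf3, a protein with a RING finger (-1.37, adjusted p = 0.00707; -0.67 and 0.207), by edgeR. Tspan4 (0.84, adjusted p = 0.00159; 0.85 and 0.0507) and Tsc22d3 (0.73, adjusted p = 0.0101; 0.70 and 0.0548) were higher in males, by edgeR. Usp2, a deubiquitinase, was higher in males too (1.34, adjusted p = 0.0418, edgeR), a weak call that passed in 7 of 11 other settings (not with the range: 1.81, adjusted p = 0.0911) and in 7 of 16 fits with 1 library omitted, and was lost without any of the female controls, male control 1, 3 or 4, or male GOF 3 or 4. Between GOF groups Wee1 was lower in males (-1.20, adjusted p = 0.000164; -0.74 and 0.0362 with the range), by edgeR. Nampt was lower (-0.79, adjusted p = 0.0091) and Tsc22d3 higher (0.64, adjusted p = 0.0152) in males, but neither passed with the range (-0.40, adjusted p = 0.407, and 0.53, adjusted p = 0.168), by edgeR.

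Among 4 genes of adrenal steroid synthesis and the ACTH response, 2 fell in female GOF against 20.6% of all genes lower. In male GOF 3 fell against 21.8%, and 1 was lower in male than in female GOF against 16.3%. Between controls 0 of 4 passed against 23.4% of all genes, and 0 had an unadjusted p under 0.05, by edgeR; for Hsd3b6 the difference was 1.23 (unadjusted p = 0.0562). For the interaction 0 of 4 passed against 4.21%, and 1 (Mc2r) had an unadjusted p under 0.05, by edgeR. DESeq2 and limma on log2(FPKM + 1) also called 0 in both. Star, which brings cholesterol into mitochondria for steroid synthesis, fell by -0.78 in females (adjusted p = 0.00877) and -0.57 in males (adjusted p = 0.0437), and Mrap, which carries the ACTH receptor to the cell surface, by -1.43 (adjusted p = 0.000749) and -0.70 (adjusted p = 0.0488), by edgeR. Both male calls were weak, each passing in 1 of 11 other settings, and that of Star in females did not pass without the 3 controls (-0.73, adjusted p = 0.0664, edgeR). Hsd3b6, a steroid dehydrogenase, fell in male GOF (-2.09, adjusted p = 0.0155, edgeR), a call kept in 9 of 11 other settings. Mc2r, the ACTH receptor, was lower in male than in female GOF (-0.88, adjusted p = 0.0215; -0.65 and 0.242 with the range, edgeR); leaving out each library in turn kept it in 11 of 16 cases, and it was lost without female GOF 1 or 3 or male GOF 1, 3 or 4.

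Of 14 genes that respond acutely to hormones, handling or heat, 3 passed in females against 39.6% of all genes, 1 in males against 36.9%, 1 between controls against 23.4%, 5 between GOF groups against 29.6%, and 0 for the interaction against 4.21%, where 4 had an unadjusted p under 0.05 in edgeR, DESeq2 called 1 (Hspa1a) and limma on log2(FPKM + 1) called 0. Fkbp5, a glucocorticoid target, stood at 53.0 to 85.4 CPM in female controls and 136 to 252 in male controls (1.53 ± 0.306, adjusted p = 0.00274; 1.45 and 0.0683 with the range, edgeR). It fell in female GOF by -0.85 (adjusted p = 0.0375, edgeR), a weak call that passed in 7 of 11 other settings (with the range -0.71, adjusted p = 0.125) and in 10 of 16 fits with 1 library omitted, and was lost without female control 1, 2 or 3 or female GOF 1, 3 or 4. Zbtb16, also a glucocorticoid target, fell in female GOF by -2.44 (adjusted p = 0.000951), and the heat shock gene Hspa1a rose by 1.06 (adjusted p = 0.0121), by edgeR. Hspa1a lost that call without female GOF 2 (adjusted p = 0.0598, edgeR), and without the 3 controls. Sgk1, a kinase induced by steroids, rose in male GOF (0.70, adjusted p = 0.000271, edgeR). Between GOF groups Fkbp5 (1.80, adjusted p = 0.000643), Zbtb16 (2.72, adjusted p = 0.000672) and Sgk1 (0.44, adjusted p = 0.00932) were higher in males, and Hspa1a (-1.08, adjusted p = 0.0142) and Hspa1b (-0.71, adjusted p = 0.044) lower, by edgeR. None of these 5 passed with the range: the values were 1.51 for Fkbp5 (adjusted p = 0.0699), 2.08 for Zbtb16 (0.055), 0.32 for Sgk1 (0.313), -0.83 for Hspa1a (0.297) and -0.51 for Hspa1b (0.427), by edgeR. Hspa1b passed in 3 of 11 other settings and in 6 of 16 fits with 1 library omitted, and Hspa1a lost its sex difference without female GOF 2.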

How the data were processed

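Total RNA of adrenal glands with an integrity number of at least 7.0 was made into NEBNext Ultra libraries and sequenced as 150 bp paired reads, per the labels' protocols. Bowtie2 2.2.3, TopHat2 2.0.12, HTSeq 0.6.1 and DESeq 1.18.0 are listed in the submitters' processing notes, without their roles; the genome build and the use of strand are not given in the sources used here. Raw read counts per Ensembl gene, as deposited, carry no normalization. The authors' FPKM values divide by gene length and library total, and the implied length matched GENCODE M21's mean transcript length within 0.1% for 97.4% of genes, and symbols and coordinates (GRCm38) come from that annotation, which held 54809 of the 54838 identifiers.

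Groups came from the labels, and replicate numbers follow the order of deposit. Counts were tested in R 4.3.3 by robust quasi-likelihood F-tests in edgeR 4.0.16, with TMM factors, filterByExpr by group (18214 genes kept), 1 model over 16 libraries with a mean per group, and Benjamini-Hochberg adjustment over all tested genes at 0.05. Standard errors were derived from each F statistic. Members and lists were chosen with earlier results of these data known. All 10 clock genes are named in every comparison, members of other lists where they passed (some genes of these lists are not reported here), and 5 genes on each side most like Dbp and Arntl. Correlations used log2 CPM with a prior count of 2 and 100000 permutations of libraries within groups, 2-sided. Alternatives were DESeq2 1.42.0, other scalings and filters, limma 3.58.1 on log2(FPKM + 1) or log2(FPKM + 0.1), the title number range as a covariate, only the groups compared, and libraries left out. Scripts were tested on simulated counts and correlations.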

Additional observations from a re-analysis of the deposited data

Results flagged for a closer look

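In 3 of 40 sets of 4 libraries (10 genes in 4 groups), the gap between an extreme library and the nearest other, as a share of the range of the 4, was above Dixon's critical value; chance gives about 1 in 20. Cry1 in female control 1 had a gap of 0.943 (5.96 CPM against 14.9 to 15.5). Clock in male control 4 had 0.875 (131 CPM against 105 to 108). Arntl in male GOF 1 had 0.863 (39.0 CPM against 52.6 to 54.7).

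The effect of GOF differed between males and females by edgeR's interaction term (Benjamini-Hochberg adjusted) for Arntl (1.34) and Per3 (-1.61) among the 10 clock genes, and for Npas2 (2.38), Tef (-1.23), Wee1 (-1.17), Tspan4 (-1.04) and Btrc (-0.37) in the other lists. The difference of Btrc, a ubiquitin ligase subunit, passed in 1 of 10 other settings and in 3 of 16 fits that left out 1 library: those without female GOF 2, male control 1 or male control 3. That of Npas2 passed in all 10 and all 16.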

How the results depend on the processing

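Other settings gave 1340 values for the fold changes of the 10 clock genes: 1203 kept direction and side of the threshold, 68 lost the call, 36 gained it and 33 changed sign. In females 5 clock genes passed; without a filter, with limma on log2(FPKM + 1) without a filter, and without female control 1, female control 3 and male control 2 there were 3, and leaving out 1 library gave 3 to 5 (3 without female GOF 1, male GOF 1 or any of the female controls). In males 1 passed, against 3 with DESeq2, upper-quartile factors or limma (all 3 versions), 2 with RLE factors, the title number range or without the 3 controls, and 1 to 3 on leaving out 1 library (3 without male GOF 1, 2 without female GOF 1, male control 2, male control 4 or male GOF 2). Between controls 2 passed, against 1 with upper-quartile factors or at least 10 counts in every library, 0 without a filter (edgeR or limma) or without the 3 controls, where DESeq2 on all libraries gave 2 and edgeR on all libraries 3 at an unadjusted p under 0.05, and 0 to 2 on leaving out 1 library (2 without female control 1 or male GOF 1). For the interaction 2 passed, against 4 with DESeq2 and 2 to 4 on leaving out 1 library. Between GOF groups 5 passed, and 4 to 7 on leaving out 1 library. Of the correlations 15 passed, against 11 without the 3 controls (added after seeing the data) and 4 to 21 on leaving out 1 library. Counts over all genes moved as well. In females 7217 of 18214 passed, against 6017 of 34196 without a filter, 6274 of 34196 with unfiltered limma and 4554 of 18935 without the 3 controls. In males 6725 of 18214 passed, against 7280 with DESeq2. Between controls 4267 of 18214 passed, against 3051 of 34196 without a filter, 3450 of 34196 with unfiltered limma and 1648 of 18935 without the 3 controls. No share over all genes is given for the unadjusted count. The causes were not tested.

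Sign changed for values that had not passed. On leaving out 1 library, Cry1 ran from -0.53 to 0.0016 in females, -0.47 to 0.0285 between GOF groups and -0.28 to 0.24 for the interaction; Nr1d1 from -0.0479 to 0.43 in females and -0.44 to 0.0979 in males; Per1 from -0.24 to 0.16 in males; and Per2 from -0.45 to 0.0090 in males and -0.285 to 0.44 between GOF groups. With the title number range, Cry1 was 0.97 between controls, a value that passed in that fit (adjusted p = 0.0401, edgeR). In the same fit Cry1 was 0.77 between GOF groups and -0.20 for the interaction. Arntl was 0.17 and Clock 0.0632 between controls, and Per1 was -0.0015 and Nr1d1 0.0103 in males. Per2 between GOF groups was 0.13 with limma on log2(FPKM + 1), with or without a filter, and 0.15 on log2(FPKM + 0.1).

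Over all genes, 7217 passed in females (4554 without the 3 controls); 4267 between controls (1311 with the range, 1648 without the 3 controls, 2650 to 4881 on leaving out 1 library, lowest without female control 3); 5394 between GOF groups (1336 with the range); and 766 for the interaction (1434 with DESeq2, 408 and 407 without a filter in edgeR and limma, 442 with the range, 175 without the 3 controls, 377 to 953 on leaving out 1 library). In females 48.0% of called genes were higher, against 60.7% by limma (log2(FPKM + 1)); in males the share was 41.1%, against 61.3% by limma and 51.2% by upper-quartile scaling. No paired analysis was possible because the labels give no replicate numbers and the numbers used follow only the order of deposit. With 4 mice a group, a change that did not pass is not shown to be absent.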

Other observations

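Per1 varied between mice together with Nr4a1, an immediate early nuclear receptor that answers ACTH and cyclic AMP in adrenal cells; this pair was singled out after the values were seen, among the 14 genes of the acute response list. Nr4a1 stood at 186, 222, 435 and 41.4 CPM in female controls 1 to 4, 114, 958, 539 and 55.4 in female GOF, 307, 531, 107 and 545 in male controls and 596, 434, 231 and 326 in male GOF. Nr4a1 and Per1 were both at their group's lowest in female control 4, female GOF 4, male control 3 and male GOF 3, and at its highest in female control 3, female GOF 2, male control 4 and male GOF 1. With group means removed, r with Per1 was 0.84 over 16 libraries (permutation p = 0.00153, adjusted over 14 genes 0.0214) and rho 0.72 (permutation p = 0.00682, adjusted 0.0955), so the rank measure did not pass. Without the 2 libraries farthest from the median of Per1, r was 0.78, and with the title number range removed 0.84. None of the other 13 genes passed; for Fos r was 0.17 and for Egr1 0.14.

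The difference between long and short genes within a library was set against each clock gene with group means removed. This measure was not compared with RNA integrity, so it cannot show whether RNA quality takes part in the clock gene values. Of 10 relations none passed after adjustment. The strongest was that of Nr1d2, with r = -0.62 (permutation p = 0.0283, adjusted 0.186) and rho = -0.60 (permutation p = 0.039, adjusted 0.195), and r = -0.45 without the 2 farthest libraries.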
